A study of Homo sapiens with 11 samples.

Results

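The 10 genes described here encode prolyl isomerases and collagen-folding enzymes of the endoplasmic reticulum (ER). They are the chaperone SERPINH1, the isomerases PPIB, FKBP2, FKBP7, FKBP10, FKBP11 and FKBP14, and the hydroxylase genes PLOD1, P4HA1 and P4HA2. They were chosen by symbol as the rows of the count table with these names, 10 of 38021 genes, and each had 1 row. All 10 passed the filter on low counts.

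RNA sequencing was done on HEK293T cells, an established line derived from human embryonic kidney, wild type by its labels, after 6 h of treatment. The vehicle was 0.1% DMSO. Tg (thapsigargin, 500 nM) blocks the calcium pump of the ER and causes general ER stress. AA147 was given at 10 µM, and AA132 at 0.1, 0.3, 1, 3, 6, 10, 15 or 30 µM; both are small molecules used to change protein handling in the ER. Each of the 11 conditions is 1 labelled sample with 3 numbered columns in the table, called libraries here, 33 libraries. Whether the columns are separate cultures is not in the labels, so p-values measure the spread between columns, which may be technical. These are bulk samples, in which fewer cells of a kind and less RNA per cell cannot be told apart.

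Chains that enter the ER meet bonds before proline that turn slowly between cis and trans, and prolyl isomerases of the cyclophilin family (PPIB) and the FK506-binding family (the FKBP genes) speed that turn. Procollagen, rich in proline, depends on them. Its prolines and lysines are hydroxylated by the prolyl 4-hydroxylases (catalytic subunits P4HA1 and P4HA2, with P4HB as partner) and lysyl hydroxylases (PLOD1), and SERPINH1, also called HSP47, binds the folded triple helix until it leaves the ER. The unfolded protein response raises many ER folding genes through ATF6, XBP1s and the PERK-ATF4 branch.

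Library totals ran from 32.27 to 37.96 M counts, and the second lowest was 36.36 M. Levels are in CPM, a gene's count as a share of its library's scaled total, given as mean ± SD over 3 libraries. Libraries of the same condition varied beyond counting error, with a chi-square per degree of freedom of 4.48 to 59.35 over 33 pairs. The widest were vehicle library 1 against vehicle libraries 2 (59.35) and 3 (46.18), while libraries 2 and 3 gave 7.47. Library 1 also stood apart at 10 µM AA132 (36.14 and 33.66, against 6.52) and under AA147 (23.01 and 22.15, against 4.83). Vehicle library 1 is part of every comparison with vehicle. Of the markers reported for the HEK293 lineage, 7 of 8 averaged over 1 CPM, and PAX2 lay under 1 CPM; their summed level was 2790 to 3360 CPM in vehicle, 2180 to 2260 under Tg, 2880 to 3050 under AA147 and 2490 to 2700 at 30 µM AA132. Among 8 fibroblast markers COL1A1 alone averaged over 1 CPM, with a sum of 41.7 to 51.5 CPM in vehicle and 20.5 to 21.1 under Tg, and none of 9 leukocyte, endothelial and hepatocyte markers did (sum 0.54 to 2.42 CPM over all libraries). The part of these shifts in the results was not tested. Changes are log2 fold changes with standard error (SE) from the quasi-likelihood test of edgeR, and a gene counts as called where its p, adjusted by Benjamini-Hochberg over all genes tested, is under 0.05.

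Promoter stretches are shown for SERPINH1, which rose along the AA132 doses, and for PPIB, FKBP2 and FKBP11, which rose together under Tg. They come from the RefSeq promoter table on GRCh38, which holds 8 of the 10 genes in 14 windows of 250 bases before to 50 after a start; FKBP10 and FKBP14 are not in it. SERPINH1 is shown as a 30-base site, chr11:75562169-75562198 on the plus strand, before its RefSeq start and inside the first exons of longer GENCODE transcripts of the gene. PPIB is shown by the 138 bases of its window that lie beyond the gene's GENCODE end, chr15:64163135-64163272 on the minus strand. FKBP2 is shown by the 250 bases before the first of its 5 listed starts, chr11:64240845-64241094 on the plus strand. The last part of that stretch, with its CCAAT box, lies past the gene's GENCODE start at 64241003. FKBP11 is shown as the 30-base site at its second listed start, chr12:48924971-48925000 on the minus strand, inside retained-intron transcripts of the gene. Capitals mark matches to the motifs searched.
SERPINH1: ttccaactTTCCAGAAGTTTCtcgggacgg
PPIB: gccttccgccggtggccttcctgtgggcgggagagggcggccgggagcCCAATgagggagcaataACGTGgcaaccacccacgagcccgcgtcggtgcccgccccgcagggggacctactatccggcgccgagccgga
FKBP2: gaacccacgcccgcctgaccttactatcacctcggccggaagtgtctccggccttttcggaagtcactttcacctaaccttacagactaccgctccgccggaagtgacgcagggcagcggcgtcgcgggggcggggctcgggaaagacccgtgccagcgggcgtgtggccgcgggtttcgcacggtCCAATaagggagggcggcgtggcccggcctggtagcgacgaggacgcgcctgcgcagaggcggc
FKBP11: ccctgctgaaaCACGTCAgctttggcttgg

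The capitals in SERPINH1 are TTCCAGAAGTTTC, a match to the heat shock element GAANNTTCNNGAA on the other strand, with its first base at position -76 from the start. Of 34796 distinct promoter windows in the table, 0.49% hold that element. No listed window of another member holds it. Of the other members PPIB, FKBP2, PLOD1, P4HA1 and P4HA2 also rose with AA132 dose, as did FKBP14, which has no window. Whether the element has a part in any of these changes was not tested. FKBP11 carries CACGTCA, a match to the XBP1s and ATF6 core TGACGTG on the other strand, at position -1; 1.96% of windows hold it. The 2 runs in PPIB are the CCAAT box at -202 and ACGTG, the hypoxia element core, at -185, and the run in FKBP2 is a CCAAT box at -64. Those short motifs are common, in 34.6% (CCAAT) and 21.4% (ACGTG) of windows. No member window holds the ER stress elements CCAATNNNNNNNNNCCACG (0.08% of windows) or ATTGGNCCACG (0.05%), or the amino acid response core TGATGNAA (3.63%). The window of HSPA5, the ER chaperone BiP, holds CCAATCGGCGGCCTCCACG at -66, a match to the first of these. Both strands were searched; TGACGTG contains ACGTG, and both ER stress elements contain the CCAAT box on one strand or the other. A match is a description of letters and not a measured binding site.

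The genes lie on separate chromosomes except SERPINH1 and FKBP2, both on chromosome 11. In GENCODE v44 (GRCh38), SERPINH1 is at chr11:75562056-75572783, FKBP7 at chr2:178463664-178478600, FKBP10 at chr17:41812680-41823213, FKBP11 at chr12:48921518-48926474 and FKBP14 at chr7:30010587-30026702. PLOD1 is at chr1:11934205-11975538, P4HA1 at chr10:73007217-73096974 and P4HA2 at chr5:132190147-132295315. PPIB (chr15:64155740-64163134, minus strand) shares 1163 exon bases, 26.6% of its exons, with SNX22, a sorting nexin gene on the opposite strand. The counts of both genes were fractional in all 33 libraries, while the other 9 members had whole counts, and whether strand was used in counting is not given in the sources used here. Reads may therefore have been divided between PPIB and SNX22, and the level of each is uncertain. FKBP2 (chr11:64241003-64244132) shares 71.0% of its exon bases with ENSG00000286264 on the same strand. Smaller overlaps are 7.3% of FKBP14 with FKBP14-AS1, 5.4% of P4HA2 with P4HA2-AS1, 4.8% of FKBP11 with ENSG00000272822 and 1.2% with CCDC65, and 1.5% of P4HA1 with ENSG00000237768.

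Divided by the summed exon length, the vehicle level was highest for PPIB, at 50.8 ± 10.3 CPM per kb. PLOD1 followed at 33.9 ± 4.03, SERPINH1 at 24.3 ± 3.25, P4HA1 at 21.4 ± 1.77 and FKBP10 at 21.1 ± 2.66 CPM per kb. FKBP2 stood at 14.3 ± 3.84, FKBP14 at 12.9 ± 2.25 and P4HA2 at 5.76 ± 0.715 CPM per kb, and the lowest were FKBP11 at 1.97 ± 0.216 and FKBP7 at 1.37 ± 0.0603. The neighbours SERPINH1, P4HA1 and FKBP10, and FKBP2 and FKBP14, lay within their spread of each other. With the longest transcript as length PLOD1 came first, at 60.5 CPM per kb, and PPIB next at 54.6. By either length PPIB and PLOD1 were the highest in these kidney-derived cells, and FKBP7 was among the lowest. FKBP11 was too, but both its lengths were the same 4957 bases, so its value of 1.97 could not differ between them. Those bases are the whole span of the gene, introns included, and a shorter spliced transcript would give a higher level. The place of FKBP11 among the lowest therefore rests on that length. These ranks depend on the annotated lengths, and which transcripts the cells use was not tested.

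Tg was compared with vehicle for the response to general ER stress. The isomerase genes FKBP2, FKBP11, PPIB and FKBP14 rose by 1.93- to 2.86-fold, the collagen chaperone SERPINH1 rose by 1.16-fold, and the lysyl hydroxylase PLOD1 fell. Of the 10 members 6 were called, 5 higher and 1 lower. Among all 17793 genes tested 31.2% were called, 16.2% higher and 15% lower. The median log2 change of the 10 members was 0.18, and that of all genes 0.005. The libraries of Tg and vehicle did not overlap in 5 members and in 38.2% of all genes. HSPA5 rose by a log2 change of 3.52 (SE 0.17, adjusted p = 1.97e-17) in the same libraries.

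**Figure D1:**
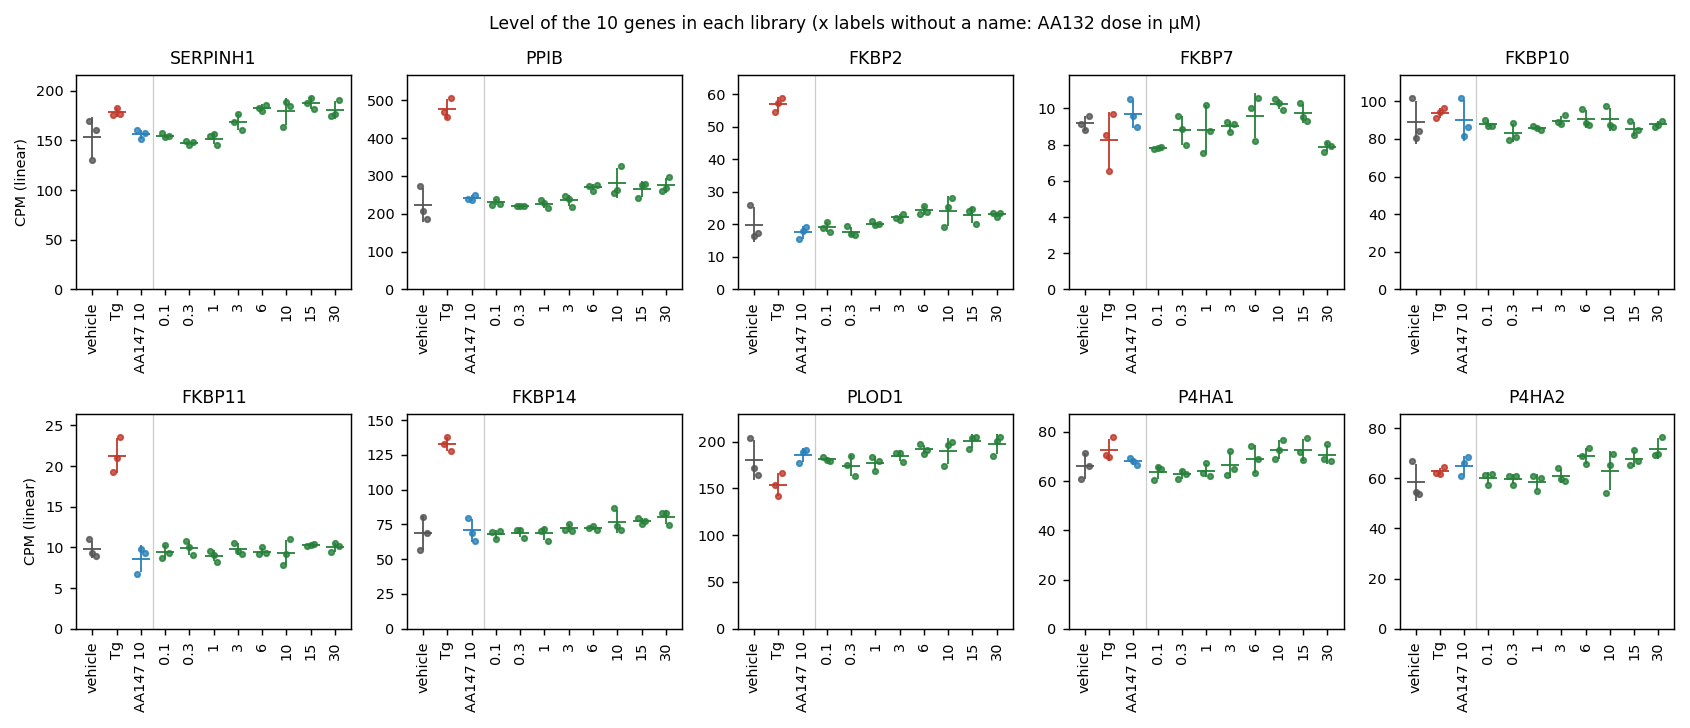
Level of each of the 10 genes in CPM (linear axis from 0) in every library, grouped by condition, with dots for libraries and bars for the mean and SD over 3 libraries. Under Tg all 3 libraries of PPIB, FKBP2, FKBP11 and FKBP14 lie above every other library, and the vehicle libraries spread widely for PPIB (186 to 273 CPM).

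SERPINH1 had 169, 130 and 160 CPM in the vehicle libraries and 175, 183 and 176 CPM under Tg. The groups did not overlap, but vehicle library 1 lay close to the Tg range. The log2 change was 0.22 (SE 0.07, edgeR adjusted p = 0.0125). Without vehicle library 2 it was 0.10 (adjusted p = 0.252), without Tg library 2 it was 0.20 (adjusted p = 0.0552), and in a fit of Tg and vehicle alone 0.22 (adjusted p = 0.185).

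PPIB, or cyclophilin B, which works with the prolyl 3-hydroxylase complex on procollagen, had 273, 208 and 186 CPM in vehicle and 469, 456 and 507 CPM under Tg. Every Tg library was far above the highest vehicle library. The log2 change was 1.10 (SE 0.09, edgeR adjusted p = 2.28e-11), a 2.15-fold rise. SNX22, its overlapping neighbour, went from 229 ± 45.2 to 441 ± 14.0 CPM, a log2 change of 0.95, and the sum of both genes changed by 1.03 (SE 0.09, adjusted p = 1.29e-11), a sum added after the data were seen.

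FKBP2, a small ER isomerase, had the largest change of the 10 genes. Its vehicle libraries held 26.1, 16.5 and 17.3 CPM and its Tg libraries 54.5, 57.3 and 59.0 CPM. The groups were well apart, and the log2 change was 1.51 (SE 0.12, edgeR adjusted p = 1.13e-11), 2.86-fold. FKBP11, an isomerase known from secretory cells, rose from 11, 9.34 and 8.96 CPM to 19.3, 21.0 and 23.6 CPM, a log2 change of 1.13 (SE 0.12, adjusted p = 3.84e-09). FKBP14, an isomerase whose loss causes a form of Ehlers-Danlos syndrome, rose from 56.6, 80.7 and 69.2 CPM to 133, 138 and 128 CPM, a log2 change of 0.95 (SE 0.09, adjusted p = 3.37e-10). In both genes every Tg library was above every vehicle library. FKBP2, FKBP11, PPIB and FKBP14 kept their call under Tg in each of 42 alternatives.

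The other 2 FKBP genes did not pass the test. FKBP10, a collagen chaperone linked to brittle bone disease, had 102, 80.6 and 84.1 CPM in vehicle and 91.2, 94.4 and 96.4 CPM under Tg. The Tg values lay inside the vehicle range, with a log2 change of 0.08 (95% interval -0.07 to 0.24, edgeR adjusted p = 0.439). FKBP7, reported to bind BiP, had 9.12, 8.79 and 9.60 CPM in vehicle and 8.53, 6.55 and 9.67 CPM under Tg. Those values overlapped as well, with a log2 change of -0.15 (95% interval -0.39 to 0.09, adjusted p = 0.354). Both intervals end well below the changes of FKBP2 and FKBP11.

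Of the hydroxylase genes PLOD1, which hydroxylates the lysines that later form collagen cross-links, was lower under Tg. It had 204, 172 and 164 CPM in vehicle and 154, 142 and 166 CPM under Tg, so that Tg library 3 lay between vehicle libraries 2 and 3. The log2 change was -0.23 (SE 0.07, edgeR adjusted p = 0.0139). The call was lost without vehicle library 1 (-0.13, adjusted p = 0.149), without Tg library 2 (-0.17, adjusted p = 0.11), and in the fit of Tg and vehicle alone (-0.23, adjusted p = 0.163). P4HA1 had 60.7, 71.6 and 66.2 CPM in vehicle and 70.7, 69.8 and 78.0 CPM under Tg, and P4HA2 66.7, 54.6 and 53.7 against 62.1, 61.8 and 64.3 CPM. Neither passed the test, with log2 changes of 0.14 (adjusted p = 0.151) and 0.11 (adjusted p = 0.346); without vehicle library 1, P4HA2 passed at 0.21 (adjusted p = 0.0455).

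**Figure D2:**
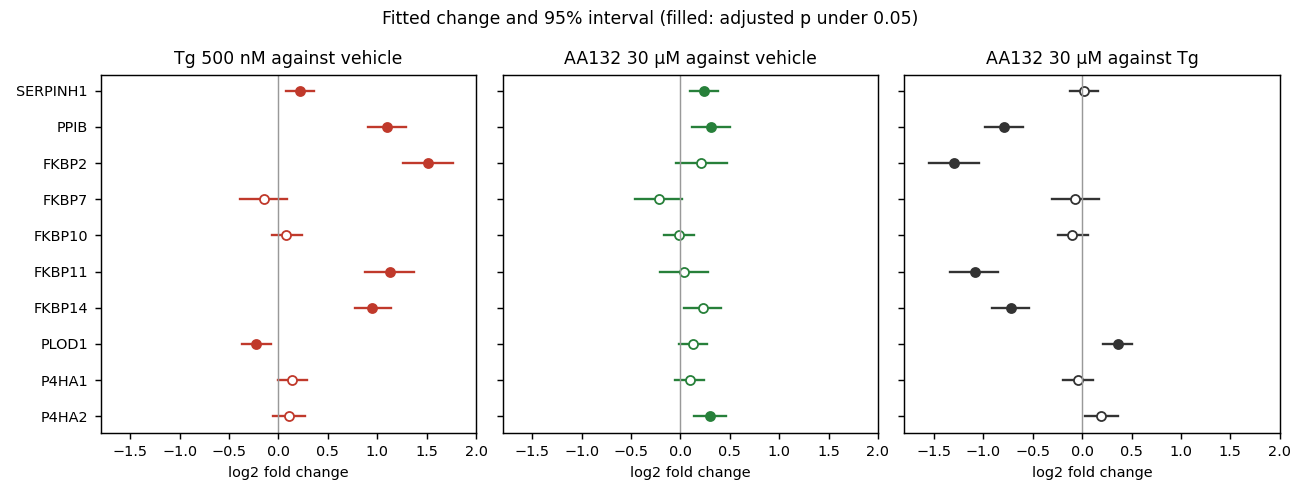
Log2 fold change of each gene with its 95% interval in 3 comparisons, Tg against vehicle, AA132 30 µM against vehicle and AA132 30 µM against Tg, with filled points for an adjusted p under 0.05. FKBP2, FKBP11, PPIB and FKBP14 lie between 0.95 and 1.51 under Tg, while no point of AA132 30 µM against vehicle is above 0.31.

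AA132 was given at 8 doses, which allows a slope over its 24 libraries that does not use the vehicle. With the slope 7 of 10 members were called, all 7 higher with dose, against 18.7% of 17554 genes called, 9.83% higher. The slopes were small, with a median of 0.09 log2 units per 10-fold dose over the 10 genes (0.001 over all genes). FKBP2 had 0.17 (SE 0.03, edgeR adjusted p = 0.000393), PPIB 0.14 (SE 0.03, 0.000128) and SERPINH1 0.14 (SE 0.02, 6.99e-06). FKBP14 and P4HA2 had 0.10 each (adjusted p = 0.000832 and 0.00269), P4HA1 0.09 (0.00176) and PLOD1 0.07 (0.00543). FKBP7 (0.07, adjusted p = 0.222), FKBP10 (0.02, 0.516) and FKBP11 (0.03, 0.614) were not called; without the 30 µM dose FKBP7 was, at 0.15 (adjusted p = 0.0109). For comparison HSPA5 had a slope of 0.68 and HMOX1, heme oxygenase and a marker of oxidative stress, 1.81.

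**Figure D3:**
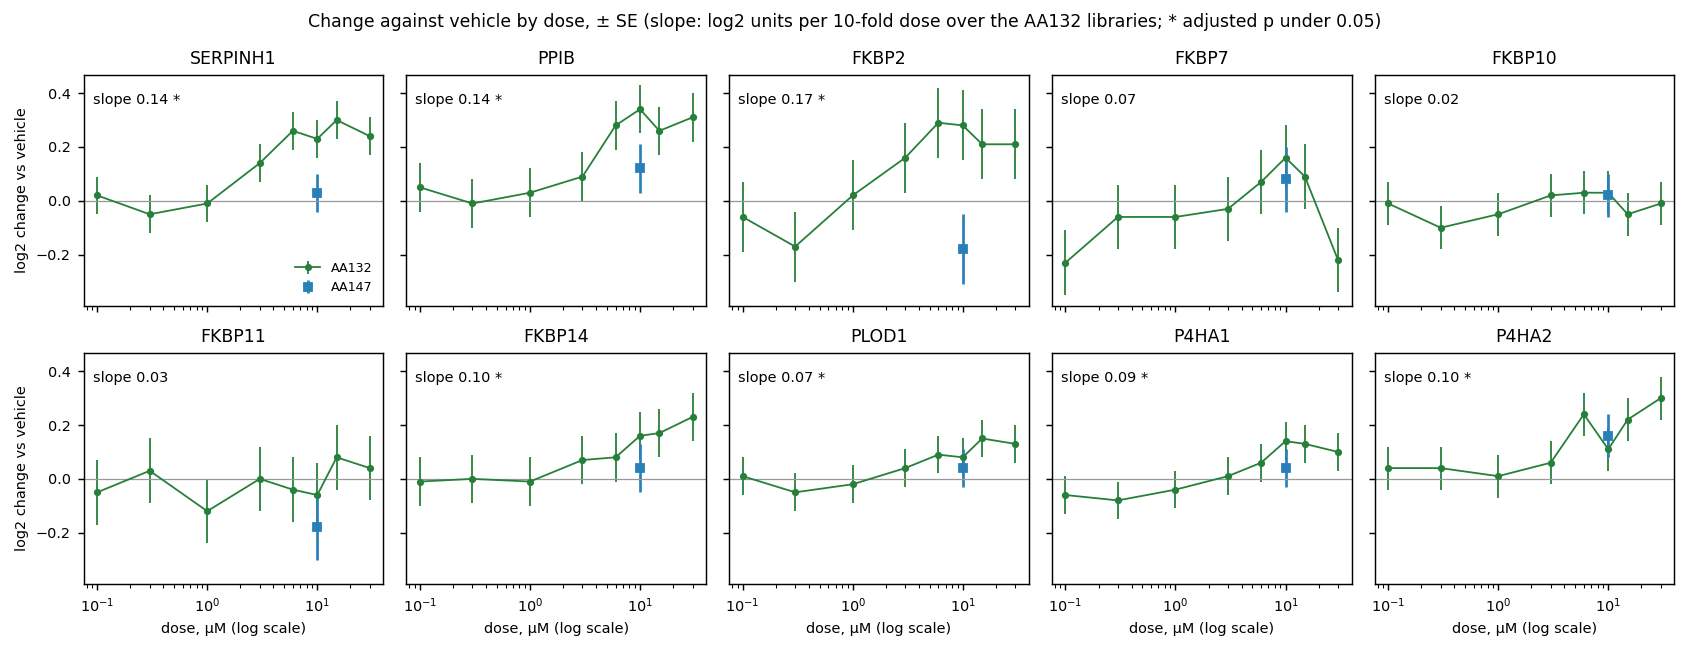
Log2 change of each gene against vehicle with its SE (vertical axis) by AA132 dose in µM on a log axis, with AA147 at 10 µM as a square and the slope over the AA132 libraries printed in each panel. SERPINH1 and PPIB lie near 0 up to 1 µM and between 0.23 and 0.34 from 6 µM upward, and FKBP10 and FKBP11 stay within 0.12 of 0 at every AA132 dose.

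At 0.1, 0.3 and 1 µM AA132 the 9 libraries of SERPINH1 lay between 145 and 157 CPM. Its level was 168, 176 and 160 CPM with 3 µM, 183, 179 and 186 CPM with 6 µM, and 163, 189 and 185 CPM with 10 µM. The highest doses gave 188, 193 and 181 CPM (15 µM) and 174, 176 and 191 CPM (30 µM). Every library from 3 µM upward was above the 3 lowest doses, and the means at 6, 10, 15 and 30 µM (183, 179, 187 and 180 CPM) did not differ beyond their spread. The difference between 30 µM AA132 and Tg was 0.02 on the log2 scale (95% interval -0.12 to 0.16).

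PPIB lay between 214 and 240 CPM in the 9 libraries of the 3 lowest doses. With 3 µM its level was 248, 240 and 219 CPM, with 6 µM 274, 261 and 275 CPM, and with 10 µM 254, 264 and 326 CPM. The highest doses gave 241, 277 and 278 CPM (15 µM) and 260, 268 and 297 CPM (30 µM). All libraries from 6 µM upward were above the range of the 3 lowest doses, and library 3 at 10 µM, the library with the lowest total, was the highest. Means from 6 to 30 µM (270, 281, 265 and 275 CPM) did not differ beyond their spread, and the Tg mean of 477 ± 26.5 CPM stood apart from them. Summed with SNX22, the slope was 0.12 (adjusted p = 0.000137).

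FKBP2 ran from 16.7 to 20.9 CPM over the 9 libraries at 0.1 to 1 µM. With 3 µM it was at 22.1, 21.4 and 23.3 CPM, with 6 µM at 23.3, 25.8 and 23.9 CPM, and with 10 µM at 19.2, 25.2 and 28.0 CPM. The highest doses gave 24.1, 24.7 and 20.1 CPM (15 µM) and 23.5, 22.3 and 23.4 CPM (30 µM). All but 2 of the libraries at 3 µM and above (10 µM library 1 and 15 µM library 3) were above the range of the lower doses. FKBP14 had 63.4 to 71.7 CPM at 0.1 to 1 µM and 83.5, 83.4 and 74.9 CPM at 30 µM. P4HA2 had 54.8 to 61.6 CPM at the 3 lowest doses and 69.4, 69.5 and 76.5 CPM at 30 µM. In both genes the 30 µM libraries lay above the range of the 3 lowest doses.

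PLOD1 had 163 to 185 CPM at the 3 lowest doses, 192, 204 and 205 CPM at 15 µM, and 185, 201 and 205 CPM at 30 µM. P4HA1 had 60.3 to 67.3 CPM at the lowest doses and 69.2, 75.1 and 68.0 CPM at 30 µM. Both rose with dose by the slope, and neither was called at a single dose. FKBP11 had 8.22 to 10.8 CPM at the 3 lowest doses and 9.38, 10.5 and 10.2 CPM at 30 µM, and FKBP10 79.7 to 90.2 and 86.3, 87.6 and 89.8 CPM. The 30 µM libraries of these genes lay inside the low-dose range. FKBP7 had 10.5, 10.3 and 9.93 CPM at 10 µM and 7.59, 8.09 and 7.94 CPM at 30 µM, and its lowest mean of the 8 doses, 7.81 CPM, was at 0.1 µM.

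Against vehicle, no member was called at 0.1, 0.3 or 1 µM, where 0% of all genes were called (796, 981 and 1057 genes had an unadjusted p under 0.05) and 0 members had an unadjusted p under 0.05. DESeq2 called 0 members at these doses, with 1, 2 and 0 of 30095 genes called, and 0 at 3 µM, with 73 of 12259. The count was also 0 at 3 µM (background 0.118%), 6 µM (1.07%) and 10 µM (1.41%). At an unadjusted p under 0.05, 1 member passed at 3 µM, 4 at 6 µM and 3 at 10 µM, against 9.19%, 12.3% and 12.9% of all genes. The nearest to a call were SERPINH1 at 6 µM (0.26, edgeR adjusted p = 0.0538) and PPIB at 10 µM (0.34, 0.0543). DESeq2 called SERPINH1 at 6 µM, with 334 of 14560 genes called, and SERPINH1 and PPIB at 10 µM, with 489 of 14560. At 15 µM 1 member was called, with 2.76% of all genes called and 1.97% called higher: SERPINH1, at 0.30 (SE 0.07, adjusted p = 0.0109).

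At 30 µM 3 members were called, all higher, with 7.05% of all genes called and 3.86% higher. They were PPIB at 0.31 (SE 0.09, edgeR adjusted p = 0.0369), P4HA2 at 0.30 (SE 0.08, 0.0176) and SERPINH1 at 0.24 (SE 0.07, 0.0253). FKBP14 was at 0.23 (adjusted p = 0.132) and FKBP2 at 0.21 (0.348), and FKBP7 at -0.22 (0.298). The median of the 10 members was 0.17, and that of all genes -0.001. In a fit of 30 µM and vehicle alone 0 members were called, with 74 genes in all in place of 1255. The changes of SERPINH1, PPIB and P4HA2 were 0.24, 0.31 and 0.30 there too, with SEs of 0.11, 0.14 and 0.11. Before adjustment 3 members passed 0.05 in that fit, where the matching share of all genes was not taken. In the fit of all conditions that share was 20.5%. Without a share from the same fit the count of 3 cannot be judged. DESeq2 over all conditions called 3 members, with 1713 of 14560 genes called. A fit of 15 µM and vehicle alone gave 0.30 for SERPINH1 (edgeR adjusted p = 0.511). Summed with SNX22, PPIB was at 0.22 (adjusted p = 0.118).

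**Figure D4:**
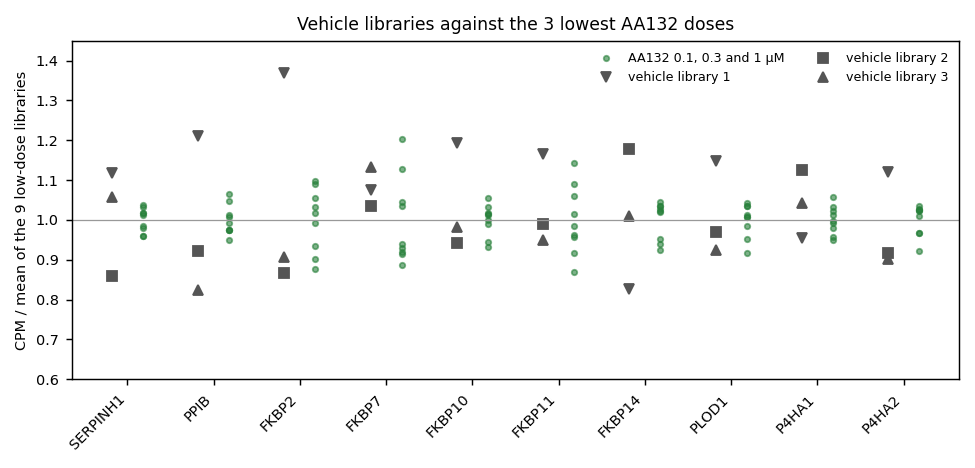
CPM of the vehicle libraries (grey triangles and squares, 1 shape per library) and of the 9 libraries at 0.1, 0.3 and 1 µM AA132 (dots), divided by the mean of those 9 libraries, for each gene (linear axis that starts at 0.6). Vehicle library 1 is the highest vehicle library for 7 of 10 genes and reaches 1.37 for FKBP2.

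The calls against vehicle moved with single vehicle libraries. Vehicle library 1 was the highest of the 3 for 7 of the 10 genes and the lowest for FKBP14 and P4HA1. Of 30 vehicle values 17 lay outside the range of the 9 libraries at 0.1 to 1 µM AA132. The coefficient of variation in vehicle was 26.7% for FKBP2 and 20.4% for PPIB, against 9.09% for the fit as a whole. Without vehicle library 1, 4 members were called at 6 µM and 3 at 10 µM, and 5 each at the doses of 15 and 30 µM, among them FKBP2 at all of these doses (0.53, 0.52, 0.45 and 0.46) and PLOD1 at 15 µM (0.25) and 30 µM (0.23). Calls over all genes rose as well in those fits, to 2.8%, 3.6%, 3.51% and 11.1% in order of dose.

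Leaving out other libraries ended calls. Without vehicle library 2, SERPINH1 was not called at 15 µM (0.18, edgeR adjusted p = 0.0826) or 30 µM (0.13, 0.21), and FKBP14 was the 1 member called at 30 µM (0.35, 0.0139), with 7.68% of all genes called. Without vehicle library 3, PPIB (0.20, adjusted p = 0.235) and P4HA2 (0.24, 0.0994) were not called at 30 µM, with 6.17% of all genes called. SERPINH1 lost its call at 15 µM without library 2 of that dose (adjusted p = 0.0685), where 1.66% of all genes were called. Without library 3 of the 30 µM dose 0 members were called there, with 5.42% of all genes called. Without its library 2 SERPINH1 (0.26, adjusted p = 0.0528) and PPIB (0.33, 0.0733) were not called, with 4.07% of all genes called. Without its library 1 PPIB was not called (0.35, 0.0517), with 3.87% of all genes called. At 10 µM, leaving out library 1 of that dose gave calls for SERPINH1 (0.29, adjusted p = 0.0291) and PPIB (0.40, 0.0284), with 1.88% of all genes called. The 7 slopes kept their call without each of the 24 AA132 libraries in turn.

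AA147 at 10 µM was compared with vehicle, and 0 of 10 members were called, with 0.0225% of all genes called. At an unadjusted p under 0.05 there were 0 members, against 6.81% of all genes. DESeq2 also called 0 members, with 26 of 12259 genes called. The largest differences were FKBP2 at -0.18 (95% interval -0.44 to 0.07), FKBP11 at -0.18 (-0.43 to 0.07) and P4HA2 at 0.16 (-0.01 to 0.32). FKBP2 had 15.4, 18 and 19.3 CPM under AA147, and P4HA2 60.7, 65.9 and 68.4 CPM. Both overlapped the vehicle libraries. The small differences moved with single libraries, FKBP2 from -0.31 without vehicle library 2 to 0.06 without vehicle library 1, FKBP11 from -0.28 to -0.04 without AA147 libraries 2 and 1, and PPIB from 0.01 to 0.30 without vehicle libraries 3 and 1; none of the 10 genes was called in any alternative. SERPINH1 had 160, 151 and 157 CPM and PPIB 239, 237 and 250 CPM, also inside the vehicle range. The interval for SERPINH1 was -0.11 to 0.17 and that for PPIB -0.07 to 0.31. In the same libraries HSPA5 was at 0.70 (adjusted p = 0.114) and HMOX1 at 1.57 (0.0902).

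The compounds AA132 and AA147 can be set against each other at 1 matched dose and time, 10 µM for 6 h, as 1 pair. No member was called, with 0.0674% of all genes called. At an unadjusted p under 0.05 there were 3 of the 10, against 8.01% of all genes, and DESeq2 called 0, with 66 of 13985 genes called. FKBP2 was at 0.46 (95% interval 0.20 to 0.72, edgeR adjusted p = 0.214), with 19.2, 25.2 and 28.0 CPM under AA132, of which library 1 lay just below the highest AA147 library at 19.3 CPM. It passed without AA132 library 1 (0.60, adjusted p = 0.0245), without vehicle library 1 (0.46, 0.0358) and with no filter on low counts (0.45, 0.00531). In these 6 libraries same-numbered libraries deviated together, and with the library number as a block in a fit of both conditions alone FKBP2 also passed (0.45, SE 0.09, adjusted p = 0.0402; 41 genes called in all), a fit chosen after the data were seen. Without the block that fit called 0 genes, and with the block over all conditions 0 members were called. PPIB was at 0.22 (0.03 to 0.41, adjusted p = 0.515) and SERPINH1 at 0.20 (0.06 to 0.34, 0.371), and in each the AA132 libraries were above all AA147 libraries. These were the 2 members without overlap, and 11.3% of all genes had none. For the other 7 genes the 95% intervals held 0, from FKBP10 at 0.01 (-0.15 to 0.16) to FKBP14 at 0.12 (-0.06 to 0.31). P4HA2 was the single point estimate below 0, at -0.05 (-0.21 to 0.12). These intervals do not show that the compounds acted alike on the members.

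AA132 at its highest dose was then compared with Tg. Of the 10 members 5 were called, 4 lower and 1 higher under AA132, with 29.8% of all genes called, 15.5% lower and 14.3% higher. The 4 lower genes were FKBP2 at -1.30 (SE 0.12, edgeR adjusted p = 4.79e-10), FKBP11 at -1.09 (SE 0.12, 9.62e-09), PPIB at -0.79 (SE 0.09, 3.62e-08) and FKBP14 at -0.72 (SE 0.09, 1.18e-07). PLOD1 was higher, at 0.36 (SE 0.07, adjusted p = 0.000202), with 185, 201 and 205 CPM against 154, 142 and 166 CPM and no overlap. In this comparison 7 members and 46.8% of all genes had no overlap. P4HA2 was at 0.19 (adjusted p = 0.0637), and passed with DESeq2 (0.20, adjusted p = 0.0454), in a fit of AA132 30 µM and Tg alone (0.21, 0.0141), with the 1 CPM filter (0.20, 0.0496) and without each of 5 libraries in turn, among them vehicle libraries 1 and 2. FKBP7, FKBP10, P4HA1 and SERPINH1 lay between -0.10 and 0.02.

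Likeness between members was described by Pearson r over the 11 condition means of log2 CPM, which share 1 scaling and the libraries of each condition. PPIB, FKBP2, FKBP11 and FKBP14 correlated with each other at 0.90 to 0.98, and PLOD1 with them at -0.51 to -0.74. Without Tg, over 10 conditions, PLOD1 correlated with SERPINH1 at 0.94 and with PPIB at 0.89, while FKBP11 correlated with PPIB at 0.16. The likeness of FKBP11 to PPIB thus rested on the Tg condition.

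For each member called under Tg the 3 genes with the most similar 11 condition means were taken from 14011 genes of at least 1 CPM. For PPIB they were PDIA6 (r = 0.995), a protein disulfide isomerase, HYOU1 (0.992), an ER chaperone, and VIMP (0.991), an ER membrane protein also called SELENOS. PDIA6 changed by 1.41 under Tg and 0.44 at 30 µM AA132, HYOU1 by 2.80 and 0.92. For FKBP14 they were TRIB3 (r = 0.997), LOC100506548 (0.996) and SESN2 (0.995); TRIB3 and SESN2 are known ATF4 targets, and they changed by 3.89 and 2.34 under Tg. FKBP2 was closest to CCDC174, SNX22 and NAT9 (0.987 to 0.989), and FKBP11 to U2AF1L4, SHCBP1 and HID1 (0.989 to 0.993). Of these neighbours SNX22 (0.09) and HID1 (0.11) had called slopes over the AA132 doses. CCDC174 (0.06), NAT9 (0.04), U2AF1L4 (0.02) and SHCBP1 (0.02) did not. The level of SNX22 is uncertain, and how far Tg alone sets these r was not tested. SERPINH1 was closest to MEIOC (r = 0.972), CD55 (0.968) and ARHGAP23 (0.954).

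PLOD1 was closest to heat shock genes. Its 3 nearest genes were HSPA1A (r = 0.984), HSPA1B (0.983) and DNAJB1 (0.981), the inducible cytosolic HSP70 genes and their co-chaperone; the first pair share nearly the same sequence, so how reads were divided between them is uncertain. HSPA1A had 1100 ± 81.1 CPM in vehicle, 255 ± 12.5 under Tg and 3040 ± 94.1 at 30 µM AA132. DNAJB1 had 142 ± 4.10, 94.5 ± 5.30 and 181 ± 6.35 CPM. HSPA1A changed by -2.11 under Tg (SE 0.18), where PLOD1 changed by -0.23, and its slope over the AA132 doses was 0.64 (SE 0.06), where that of PLOD1 was 0.07.

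Other genes of collagen modification and export were read as a list of 20, of which 19 were tested. Under Tg 8 were higher and 4 lower, against 16.2% and 15% of all genes, and the median was 0.02. Among those higher were P4HB, the partner of P4HA1 and P4HA2, at 0.90 (SE 0.06, edgeR adjusted p = 1.74e-13), the disulfide isomerase PDIA3 at 1.13, and the retrieval receptors KDELR2 at 1.01 and KDELR3 at 0.90. MIA3, also called TANGO1, which loads procollagen into carriers, was at 0.95, the coat subunit SEC23A at 0.46, the transcription factor CREB3L2 at 1.79 and the glycosyltransferase gene COLGALT2 at 0.71. Lower were COLGALT1 at -0.71, the prolyl 3-hydroxylase family genes P3H4 at -0.48 and P3H3 at -0.31, and P4HA3 at -0.94. The level of P4HA3 was very low, at 1.08 ± 0.14 CPM in vehicle and 0.563 ± 0.306 CPM under Tg. The other ER isomerases on the list, FKBP9 (-0.07) and PPIC (-0.18), did not pass. At 30 µM AA132 2 were higher, KDELR2 at 0.33 and PDIA3 at 0.34, and 0 lower, against 3.86% and 3.19% of all genes. By the slope 4 were higher (P4HB 0.09, PLOD3 0.07, PDIA3 0.18, CREB3L2 0.12) and 1 lower (COLGALT2 -0.11), against 9.83% and 8.89%. Under AA147 0 were called, with 0.0225% of all genes called, and 2 had an unadjusted p under 0.05, against 6.81%. DESeq2 called 0 of the list there, with 26 of 12259 genes called.

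Collagen chains, the clients of these enzymes, were measured by every gene named as a collagen chain. Under Tg 17 of 35 tested were lower and 2 higher, with a median of -0.52, against 15% and 16.2% of all genes. COL4A2 went from 419 ± 10.2 to 155 ± 9.12 CPM, a log2 change of -1.44 (SE 0.08, edgeR adjusted p = 3.32e-16), and COL4A1 from 207 ± 41.1 to 91.0 ± 2.33 CPM (-1.19, adjusted p = 8.58e-12). COL2A1 was at -1.65, COL18A1 at -1.24 and COL1A1 at -1.15; COL12A1 (0.43) and COL14A1 (0.33) were the 2 higher. At 30 µM AA132 edgeR called 0 of 35, with 7.05% of all genes called, and 6 had an unadjusted p under 0.05, against 20.5%. DESeq2 called 1 chain, with 1713 of 14560 genes called. By the slope 1 of 34 was higher (COL6A2, 0.07) and 4 lower (COL1A1 -0.11, COL25A1 -0.13, COL4A1 -0.09, COL5A2 -0.19), where 9.83% of all genes were higher and 8.89% lower. COL1A1 is also the one fibroblast marker over 1 CPM.

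Prolyl isomerases and related genes outside the ER were 24 tested genes of 27. Under Tg 4 were higher (PPIE 0.35, PPIL1 0.35, PPIL3 0.32, PPIL4 0.28) and 7 lower, among them FKBP1B (-0.34), FKBP4 (-0.36), PPIA (-0.34), PPIF (-0.23), NKTR (-0.39) and PIN4 (-0.52), with a median of -0.05. Among all genes 16.2% were higher and 15% lower. These 11 changes were at most 0.52 in size, where FKBP14, PPIB, FKBP11 and FKBP2 changed by 0.95 to 1.51. At 30 µM AA132 edgeR called 0, with 7.05% of all genes called, and 4 had an unadjusted p under 0.05, against 20.5%. DESeq2 called 1, with 1713 of 14560 genes called. By the slope edgeR called FKBP5 alone, lower at -0.08, where 9.83% of all genes were higher and 8.89% lower.

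P4HA1, P4HA2 and PLOD1 are also known as targets of hypoxia-inducible factor, so 18 other such genes were read, of which 17 were tested. Under Tg 5 were higher (HK2 1.75, VEGFA 1.55, LOX 1.00, NDRG1 0.62, SLC2A1 0.50) and 7 lower (ADM -0.70, LDHA -0.40, ALDOA -0.39, EGLN3 -0.37, PFKFB3 -0.31, PGK1 -0.18, ENO1 -0.18), with a median of -0.11, where 16.2% and 15% of all genes were called in these directions. At 30 µM AA132 3 were higher (VEGFA 0.45, NDRG1 0.48, SLC2A1 0.33) and PDK1 was lower at -0.30, against 3.86% and 3.19% of all genes. By the slope VEGFA (0.17), NDRG1 (0.21) and KDM3A (0.05) were higher and PDK1 was lower (-0.07), against 9.83% and 8.89% of all genes.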

How the data were processed

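Total RNA of HEK293T cells went to a provider for library preparation and DNBSEQ sequencing, per the labels' protocols. The deposited table holds expected counts per gene made by the authors, called total reads on a linear scale per the file headers; GRCh38.p7 is named in the submitters' processing notes, and the aligner, counter and use of strand are not given in the sources used here. The lowest value, 0.009, was set to 0, and counts were rounded. Of 38074 entries 98 shared 45 names and were summed, except 28 names turned into dates, which were kept apart.

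All 33 libraries entered 1 fit of edgeR 4.0.16 (R 4.3.3; TMM scaling, filterByExpr, 17793 genes; quasi-likelihood F-test without a block), and the slope on log10 dose a fit of the 24 AA132 libraries. Adjusted p-values are over all genes tested. Totals of 32.27 to 37.96 M counts limit precision less than the spread between libraries (9.09%). Positions and lengths are from GENCODE v44. The 10 genes, the related lists and the comparisons were chosen with earlier results of these data known. Named genes are the members in every condition, the genes of the related lists called under Tg or 30 µM AA132, 4 response markers and the 3 genes of most similar pattern for each member called under Tg; slope calls, FKBP9, PPIC and the choice of 5 among the 17 lower collagen chains came after their values were seen. Alternatives were other scaling (RLE), filters, DESeq2 1.42.0, a block by library number, fewer conditions, a minimum change, unrounded counts, other doses and each library left out. By deviations from condition means, same-numbered libraries were paired in AA132 10 µM against AA147 alone, where every pair correlated above 0.1 (lowest r 0.19); the labels tie the numbers to nothing shared. The values of 1 gene of the related lists are not reported here.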

Additional observations from a re-analysis of the deposited data

How the results depend on the processing

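Of 130 member results 22 were called in the main fit. Under 5390 alternative values 5313 kept their side of the threshold, 38 lost and 39 gained a call, and 0 reversed among called values. The sign changed in 103 uncalled values. Most alternatives left out 1 library, often of a condition not compared, so the total does not measure how firm a call is. The cause was not tested beyond what each setting changes. The count of called members at 6 µM AA132 against vehicle was 0. It was 1 with RLE scaling, no filter, the 1 CPM filter or DESeq2, and 0 to 4 over left-out libraries. Over all genes 190 of 17793 were called in the main fit. In these settings 196 of 17793, 360 of 30096, 224 of 14765 and 334 of 14560 were, and 0.525% to 2.8% over left-out libraries. At 10 µM the count of called members went from 0 to 1 with no filter and 2 with DESeq2, and from 0 to 3 over left-out libraries. Calls over all genes were 250 of 17793 in the main fit, 411 of 30096 and 489 of 14560, and 0.861% to 3.6% over left-out libraries. At 15 µM the count of called members went from 1 to 2 with no filter, and was 0 to 5 over left-out libraries. It went to 0 with only the compared conditions or a minimum log2 change of 0.5. Calls over all genes were 491 of 17793 in the main fit, then 703 of 30096, 46 of 16479 and 201 of 17793. Over left-out libraries they were 1.47% to 5.08%. At 30 µM the count of called members went from 3 to 0 with only the compared conditions or the 0.5 minimum, with 0 to 5 over left-out libraries. Calls over all genes were 1255 of 17793 in the main fit, then 74 of 16463 and 368 of 17793. Over left-out libraries they were 3.87% to 11.1%. Against AA147 the count of called members went from 0 to 1 with no filter (98 of 30096 genes called), and 0 to 1 over left-out libraries (0% to 0.426% of genes). The slope count went from 7 to 0 with a minimum of 0.5, and over all genes from 3286 to 92 of 17554. Over left-out libraries the Tg count was 4 to 6, with 25.3% to 32.3% of all genes called. That against Tg was 5 to 6, with 24.1% to 34.4%.

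Over all conditions residuals of same-numbered libraries correlated at a median r of 0.02 (-0.62 to 0.51 over 165 pairs). The replicate block kept each count of called members: 6 under Tg, 3 at 30 µM, 1 at 15 µM, 5 against Tg, 7 for the slope and 0 elsewhere; with the replicate block in a fit of AA132 10 µM and AA147 alone the count went from 0 to 1, and the block changed no other count. Over all genes, calls at 30 µM went from 1255 to 74 with only the compared conditions, and under Tg from 5551 to 3073. Against AA147 they were 12, 66 with DESeq2 and 98 with no filter. That fit and the sum of PPIB and SNX22 were chosen after seeing the data. Depth limits FKBP7 and FKBP11 the most, at about 9 CPM.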
